A study of Mus musculus with 16 samples.

Results

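The infarct response of hearts lacking PKM2 was read from 6 left ventricles: 3 from PKM2-/- mice killed 3 days after permanent ligation of the left anterior descending coronary artery (myocardial infarction, MI) and 3 from PKM2-/- mice killed 3 days after the same operation without ligation (sham). All genes with a mean normalised count of at least 10 over these 6 libraries were examined, which gave 20572 of the 55492 genes in the table; the series holds 16 libraries in all. In PKM2-/- mice the deletion was inherited and was not limited to one cell type. It came from a floxed Pkm allele recombined by CMV-Cre, a transgene with a ubiquitous promoter that the animals no longer carried. All animals were C57BL/6 males of 8 to 12 weeks. The comparison libraries were 3 PKM2fl/fl sham and 3 PKM2fl/fl MI ventricles, whose Pkm locus carries loxP sites but no deletion. Frozen tissue was pulverised, so each library averages infarcted, bordering and remote muscle with every cell type in them.

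Pkm encodes pyruvate kinase, which catalyses the last step of glycolysis, and its PKM1 and PKM2 isoforms arise by a choice between mutually exclusive exons. PKM1 is the isoform of adult cardiac muscle, whereas PKM2 is prominent in fetal heart and in cells that proliferate or are activated, among them leukocytes and fibroblasts. After coronary occlusion cardiomyocytes in the ischaemic wall die, neutrophils and then monocytes enter, dead muscle is cleared, and fibroblasts proliferate and lay down scar matrix. Surviving muscle is known to reduce the genes of fatty acid oxidation and of the adult contractile apparatus and to raise those of the fetal programme.

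The 6 libraries held 20623769 to 49799285 reads. Pearson's correlation of log2 values was 0.9729 to 0.9735 between sham libraries, 0.9717 to 0.9834 between MI libraries and 0.8741 to 0.8956 between sham and MI. Reads on loci that hold ribosomal RNA, mitochondrial included, took 30.5% to 49.1% of the sham libraries and 17.3% to 39.0% of the MI libraries. The means differed by less than the spread (36.8% ± 10.6 and 30.5% ± 11.6, SD, n = 3 each, exact two-sided permutation p = 0.6, where 0.1 is the smallest that 3 against 3 allows), and MI 1 had the lowest share. Messenger RNAs of the mitochondrial genome took 8.10% to 10% of reads after sham and 3.37% to 5.76% after MI (exact two-sided permutation p = 0.1, again the smallest possible).

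The Pkm gene as a whole does not test the genotype, since the deletion takes out 1 exon and a gene count does not separate the isoforms. For PKM2-/- mice the authors describe decay of the Pkm2 transcript and an increase in Pkm1. Its level was 11710.1, 14242 and 13199 after sham and 16113, 11549 and 10120.2 after MI. The ranges overlapped, and the gene was not called (log2 fold change -0.07 ± 0.17 (SE), adjusted p = 0.741 by limma with Benjamini-Hochberg adjustment). The difference turned to 0.44 under total count scaling and to 0.069 without MI 3.

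The promoters of members of 3 groups of genes described below are shown here, as RefSeq gives them for GRCm38.p6 (the mm10 assembly), each the 120 bases before the start of transcription, 5′ to 3′. The first set is that of cell cycle genes, of which 33 of 39 were called higher, beside 14.7% of all genes tested. Capitals mark the CCAAT box (CCAAT, bound by NF-Y) and the cell cycle genes homology region or CHR (TTTGAA, bound by the DREAM and MuvB complexes), on either strand. The genes are the 3 called members with the smallest p that hold a CCAAT box in this stretch.

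Mcm5 promoter, chr8:75109389-75109508, plus strand: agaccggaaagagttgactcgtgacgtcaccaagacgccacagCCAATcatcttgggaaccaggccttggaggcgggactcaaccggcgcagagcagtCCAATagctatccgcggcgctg

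Cdk1 promoter, chr10:69352913-69353032, minus strand: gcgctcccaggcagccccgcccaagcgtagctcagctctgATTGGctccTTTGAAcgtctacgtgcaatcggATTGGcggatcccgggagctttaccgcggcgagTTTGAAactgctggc

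Rrm1 promoter, chr7:102441575-102441694, plus strand: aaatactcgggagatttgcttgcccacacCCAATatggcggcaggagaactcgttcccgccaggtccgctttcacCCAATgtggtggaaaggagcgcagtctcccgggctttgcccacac

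In Cdk1 the CHR motifs begin 71 and 15 bases before the start and the CCAAT boxes, read on the other strand, 80 and 48 bases before it. Over the 250 bases before the start, 24 of the 31 tested cell cycle genes with a RefSeq promoter held a CCAAT box (77.4%) and 7 a CHR (22.6%). Among the 12864 tested genes with a promoter the shares were 39.5% and 14%. The second set is the M-CAT element (CATTCC, bound by TEAD factors) in the natriuretic peptide gene Nppb, read on the other strand 105 bases before the start. The third is the core of the hypoxia response element (ACGTG, bound by HIF) in Slc2a1, which rose, and in Egln1, which fell.

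Nppb promoter, chr4:147985780-147985899, plus strand: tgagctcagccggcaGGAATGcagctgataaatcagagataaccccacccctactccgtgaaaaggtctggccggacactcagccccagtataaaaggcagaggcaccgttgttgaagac

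Slc2a1 promoter, chr4:119108625-119108744, plus strand: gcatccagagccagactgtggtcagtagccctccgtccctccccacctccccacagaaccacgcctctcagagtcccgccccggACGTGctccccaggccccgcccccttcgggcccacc

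Egln1 promoter, chr8:124949255-124949374, minus strand: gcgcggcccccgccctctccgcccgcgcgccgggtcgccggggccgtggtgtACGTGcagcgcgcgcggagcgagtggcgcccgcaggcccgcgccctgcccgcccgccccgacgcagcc

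M-CAT elements were present in 8 of 20 promoters of load-response genes (40.0%) against 13.2% of all tested promoters. The hypoxia core was present in 11 of 15 promoters of HIF-1 target genes (73.3%) and 10 of 23 of glycolytic genes (43.5%) against 23.9%. An E-box (CACGTG, bound by the clock factors) was present in 5 of 16 clock genes (31.2%) against 9.27%. The half-site of the oestrogen-related receptors (AAGGTCA) was present in 1 of 28 fatty acid oxidation genes (3.57%) against 3.72%, and the AP-1 site (TGANTCA) in 4 of 16 protease genes (25%), 5 of 28 cytokine genes (17.9%) and 0 of 22 myofibroblast genes against 6.13%. A match describes these letters in this window and shows no binding. The HIF-1 genes were listed as targets of that factor, so the choice of list itself favours a high share. None of these shares is a result about the infarct.

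Infarction changed the transcriptome of PKM2-/- ventricles in both directions. A gene was called when its adjusted p was below 0.05 by limma and its change was at least 2-fold. By that rule 3030 genes were higher after MI (14.7% of those tested) and 2835 were lower (13.8%), together 28.5%. Of these, 1209 rose and 683 fell by at least 4-fold, and 456 rose and 87 fell by at least 8-fold. The 3 MI values lay above or below the 3 sham values without overlap in 3002 of the genes called higher and 2806 of those called lower, and in 32.2% and 30.3% of all tested genes. The mean level of 842 genes passed 10 only through MI, 509 of them called higher, and that of 581 only through sham, 290 of them called lower. The remaining 19149 genes, with a mean of at least 10 in both groups, gave 2521 higher and 2545 lower calls.

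The split between higher and lower depended on the scaling. The deposited values use size factors that centre the typical gene, and the median log2 change was 0.03. With total count scaling, which adds 0.51 to the log2 change of the typical gene, the median moved to 0.53 and the calls to 5550 higher and 1445 lower (79.3% higher against 51.7%). With total counts over genes that are neither ribosomal nor mitochondrial it moved to 0.25, with 3985 higher and 2096 lower calls. No gene called by the main rule changed sign under either scaling, and all 3030 higher calls stood under both, whereas 1439 and 2096 of the lower calls stood. In bulk tissue, fewer cells of a type and less RNA per cell cannot be told apart. Every change below is relative to the typical gene.

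**Figure D1:**
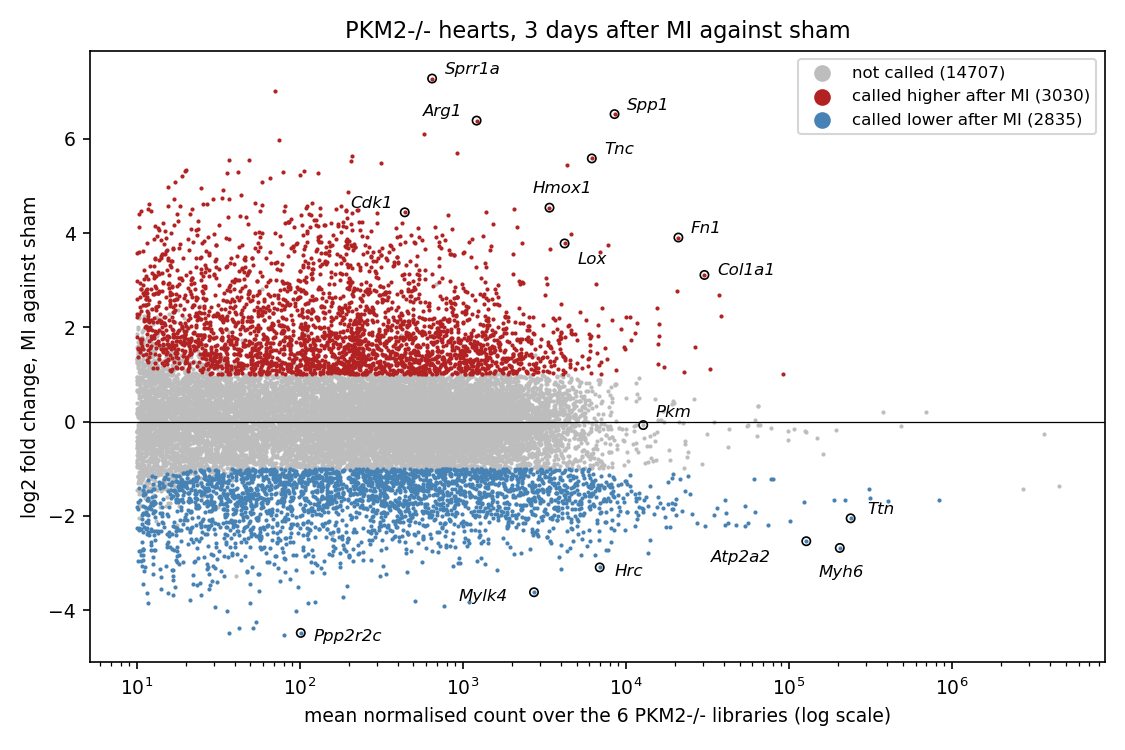
Log2 fold change, MI against sham, of each of 20572 genes in PKM2-/- hearts (vertical) against its mean normalised count over the 6 libraries (horizontal, log scale). The 3030 genes called higher are red and the 2835 called lower blue. The muscle genes Myh6, Ttn and Atp2a2 are among the blue points at high counts, and Pkm lies near 0.

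The genes with the smallest p among those that rose included genes of scar matrix and of macrophages. Lox, the lysyl oxidase that cross-links collagen and elastin, was at 648, 496 and 584 after sham and 7641, 7939 and 8043 after MI (log2 fold change 3.78 ± 0.11 (SE), adjusted p = 2.72e-07). Itgam, which encodes the CD11b integrin of myeloid cells, was at 521, 559 and 504 after sham and 4342, 3769 and 4176 after MI (log2 fold change 2.95 ± 0.097 (SE), adjusted p = 2.72e-07). Gm49368, a gene model annotated over the same stretch as Itgam, had almost the same counts, and reads of the pair cannot be separated. The other genes with the smallest p were Tlr13, an endosomal receptor for bacterial RNA (3.60 ± 0.12), Ltbp2, a matrix protein of the latent TGF-beta binding family (3.64 ± 0.12), Col18a1 (2.72 ± 0.093), Soat1, which esterifies cholesterol (2.67 ± 0.093), the adhesion molecule Alcam (3.28 ± 0.11), the leukocyte tetraspanin Cd53 (2.81 ± 0.10) and Mmp14, a membrane-bound collagenase (2.92 ± 0.11; log2 ± SE throughout). In each of these 10 genes every MI library lay above every sham library.

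Sprr1a, a small proline-rich protein of stressed cardiomyocytes and squamous epithelium, had one of the largest rises, at 6.43, 5.22 and 10.8 after sham and 1118, 1672 and 1089 after MI (log2 fold change 7.28 ± 0.28 (SE), adjusted p = 3.24e-07). Spp1, which encodes the matrix cytokine osteopontin, went from 548, 91.4 and 115 after sham to 20738, 15272 and 14545 after MI (log2 fold change 6.52 ± 0.53). Gm42793, annotated inside Spp1, rose beside it (6.11 ± 0.55) and is not separate from it. Arg1, the arginase of reparative macrophages, was at 86.8, 7.84 and 27.0 after sham and 3021, 1697 and 2476 after MI, and Chil3, a chitinase-like protein of monocytes and macrophages, at 35.4, 62.7 and 12.9 after sham and 3014, 1275 and 1171 after MI. Sham 1 held the highest Spp1 and Arg1 among the sham libraries, and every MI library lay above it. Leaving out 1 library moved some of these changes by more than 1.5-fold. Without sham 1 the change was 7.33 for Spp1, 6.89 for Gm42793 and 7.21 for Arg1, without sham 2 it was 5.56 for Arg1, and without sham 3 it was 5.10 for Chil3.

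Cxcl3, a neutrophil chemokine, was at 0 in 2 sham libraries and reached 236, 84.5 and 117 after MI (5.97 ± 0.84). The cytokine Il6 was at 0, 7.84 and 47.5 after sham and 606, 330.3 and 261 after MI (5.64 ± 1.09), with MI 1 the highest. The Il6 change was 4.18 without sham 1 and 6.98 without sham 3, and that of Cxcl3 was 7.06 without sham 3. Tnc, which encodes the injury matrix protein tenascin C, rose by 5.58 ± 0.46 and Dtl, a substrate receptor of the ubiquitin ligase that acts during DNA replication, by 5.53 ± 0.69. The change of Tnc was 4.90 without sham 2, and that of Dtl was 6.50 without sham 1 and 4.80 without sham 3. Crct1, an epithelial cornification gene, had no read in the sham libraries and 229, 94.6 and 98.1 after MI. Against 3 reads in each sham library, the level was at least 35.2-fold higher.

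**Figure D2:**
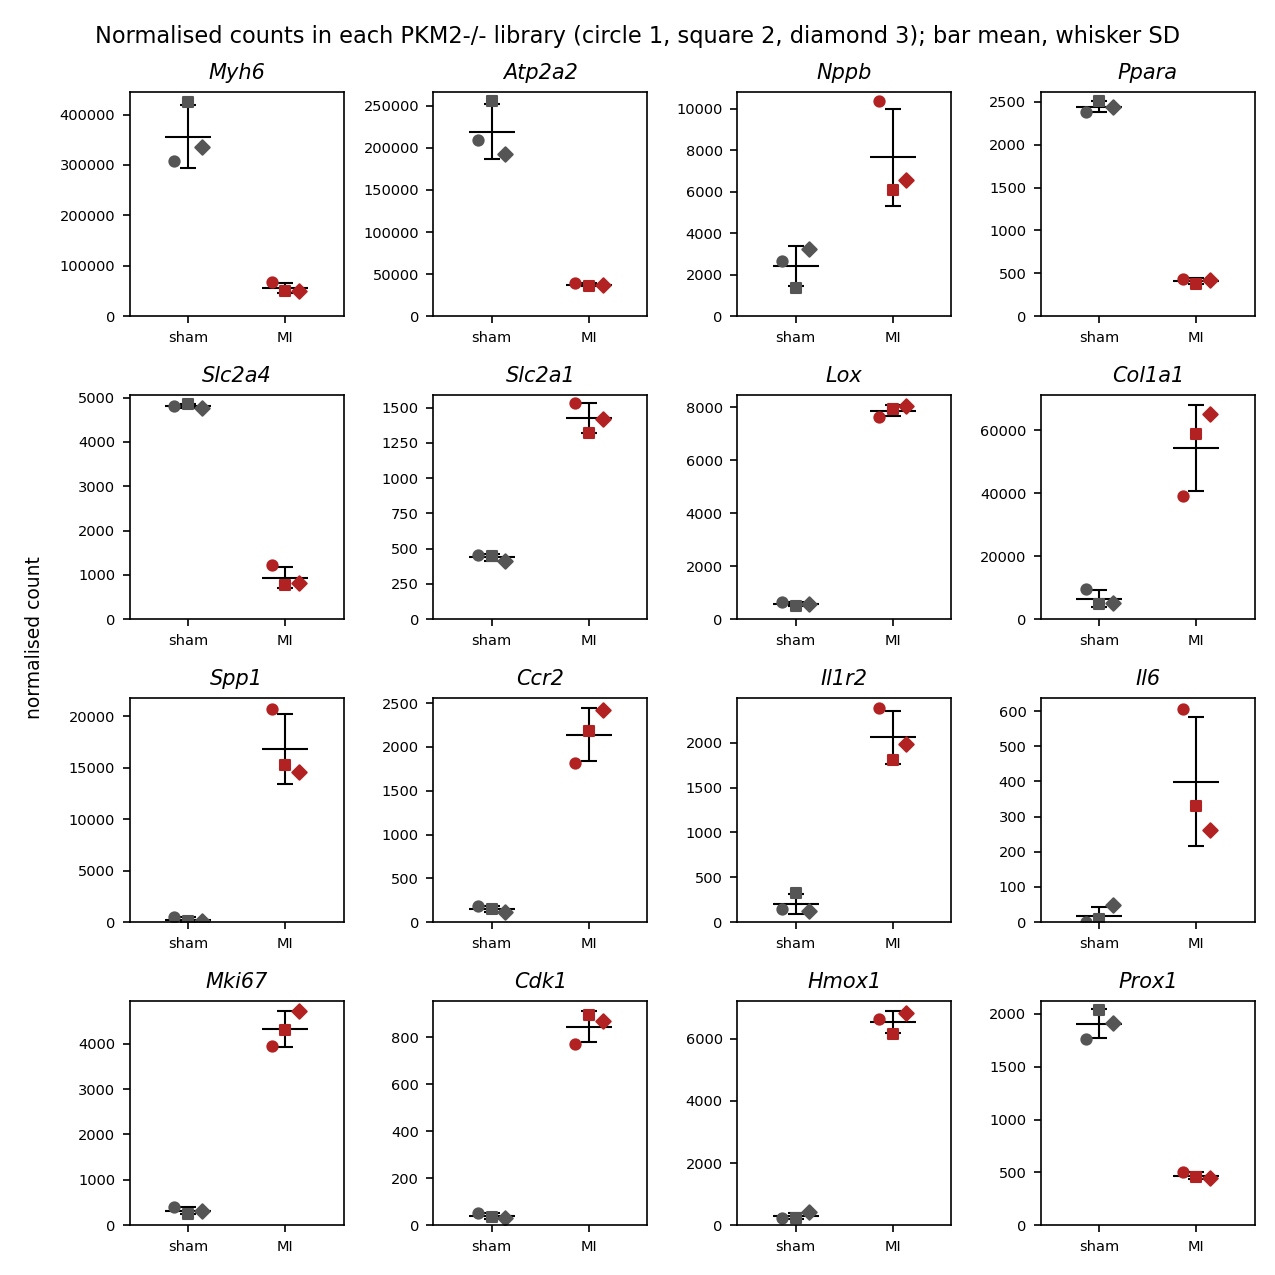
Normalised counts of 16 genes in each of the 3 sham (grey) and 3 MI (red) PKM2-/- libraries, on linear axes from 0. Bars are means and whiskers SD. Sham and MI values do not overlap in any of these genes. MI 1 is the highest MI library for Myh6, Atp2a2, Nppb, Ppara, Slc2a4, Slc2a1, Spp1, Il1r2, Il6 and Prox1. It is the lowest for Lox, Col1a1, Ccr2, Mki67 and Cdk1.

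The genes with the smallest p among those that fell were mostly genes of cardiac muscle. Rpl3l, the striated muscle paralogue of a ribosomal protein, was at 3194, 3887 and 3749 after sham and 524, 496 and 519 after MI (log2 fold change -2.81 ± 0.10 (SE), adjusted p = 3.12e-07). Kcnip2, the subunit that shapes the transient outward potassium current, was at 2116, 2086 and 2297 after sham and 247, 286 and 303 after MI (log2 fold change -2.96 ± 0.11 (SE), adjusted p = 3.12e-07). Ppara, the nuclear receptor that drives fatty acid oxidation genes, was at 2383, 2509 and 2441 after sham and 439, 373 and 419.8 after MI (log2 fold change -2.57 ± 0.099 (SE), adjusted p = 3.24e-07). Cmya5, which encodes the muscle protein myospryn, fell by 2.80 and A630019I02Rik, a long noncoding RNA on the opposite strand within Cmya5, by 2.88 on the log2 scale. The library kit is not stated to mark strand, and reads of the pair cannot be told apart. Slc25a34, a mitochondrial carrier (-2.91 ± 0.11), the EF-hand protein Efcab2 (-2.49 ± 0.099) and the noncoding RNAs Gm15523 (-2.58 ± 0.094) and A930016O22Rik (-2.53 ± 0.10) were also among the genes with the smallest p.

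Ppp2r2c, a regulatory subunit of protein phosphatase 2A, had one of the largest falls, at 183, 212 and 192 after sham and 9.73, 8.26 and 5.77 after MI (log2 fold change -4.49 ± 0.29 (SE), adjusted p = 1.63e-06). Kcnv2, a modifying potassium channel subunit, was at 135, 206 and 201 after sham and 11.3, 7.62 and 11.5 after MI (-4.02 ± 0.30). Ces1d, a carboxylesterase that hydrolyses triglyceride, was at 868, 910.3 and 1062 after sham and 47.8, 68.0 and 89.4 after MI (-3.81 ± 0.21), and Mylk4, a myosin light chain kinase of striated muscle, at 5916, 6160.3 and 3187 after sham and 435, 402 and 353 after MI (-3.62 ± 0.22). Scn4b, a sodium channel subunit, was at 148, 682 and 207 after sham and 34.0, 26.7 and 8.66 after MI, with sham 2 far above the other sham libraries, and its change went from -3.71 to -3.06 without sham 2. The pseudogene Gm18589 (-4.52 ± 0.92), the cyclic nucleotide-gated channel Cnga3 (-4.25 ± 0.86), the noncoding RNA Gm20619 (-3.92 ± 0.22), the mitochondrial transfer RNA mt-Ts1 (-3.83 ± 0.35) and the channel-modifying protein Lrrc52 (-3.83 ± 0.25) were the others. Gm18589 and Cnga3 had no read in MI 3, and without it their changes were -3.17 and -3.07. Without MI 1 they were -5.34 and -5.05.

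The adult contractile apparatus fell almost as a whole. Of 21 listed genes, all tested, 19 (90.5%) were called lower and none higher, beside 13.8% and 14.7% of all genes tested. The median log2 change was -1.83 against 0.03 over all genes tested. Myh6, the adult alpha myosin heavy chain, was at 307764, 425724 and 335363 after sham and 66974, 50252 and 49315 after MI (log2 fold change -2.68 ± 0.29 (SE), adjusted p = 3.37e-05). Titin (Ttn), the giant spring of the sarcomere, was at 352500.0, 484789 and 326324 after sham and 92457, 99810.5 and 84328 after MI (-2.05 ± 0.32). The myosin light chain kinase Mylk3 (-2.31 ± 0.16), the Z-disc protein Ldb3 (-1.83 ± 0.13) and cardiac troponin I (Tnni3, -2.22 ± 0.17) were among the members with the smallest p. The members not called were Pdlim5 at -0.65 and Smpx at -0.42. These were named after their values were seen.

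Calcium handling and ion channel genes fell in the same way, with 22 of 28 (78.6%) called lower, none higher, and a median of -1.82. Over all genes tested the shares were 13.8% and 14.7%. Hrc, a calcium-binding protein of the sarcoplasmic reticulum, was at 10628, 14079.7 and 12535 after sham and 1787, 1353 and 1239 after MI (log2 fold change -3.10 ± 0.15 (SE), adjusted p = 6.29e-07), with no overlap. Atp2a2, the SERCA2 pump that refills that store, was at 209145, 255348 and 192836 after sham and 39502, 35488 and 37364 after MI (-2.54 ± 0.23). The calcium release channel Ryr2 (-1.92 ± 0.20), the potassium channel Kcnd3 (-1.86 ± 0.099) and junctophilin 2 (Jph2, -1.83 ± 0.11), which ties the transverse tubule to the store, were also lower. Camk2d, the main cardiac isoform of calmodulin kinase II, was at 6093, 6357 and 6231 after sham and 6355, 6282 and 5791 after MI and was not called (log2 fold change -0.02 ± 0.095 (SE), adjusted p = 0.871). It was named after its values were seen.

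Among 22 genes of wall stress and load, 5 (22.7%) were called higher and 2 (9.09%) lower, beside 14.7% and 13.8% of all genes tested, and the median was 0.0027. The natriuretic peptide genes rose, Nppa from 5499.7, 2246 and 6098 to 11509.6, 10670.3 and 9822 (log2 fold change 1.33 ± 0.31, adjusted p = 0.00476) and Nppb from 2657, 1336 and 3241 to 10354, 6066 and 6561 (1.72 ± 0.30, adjusted p = 0.000928). Both were named after their values were seen. Actn1, the non-muscle alpha-actinin, was at 1884, 1902 and 1674 after sham and 5935, 6246 and 6081 after MI (log2 fold change 1.74 ± 0.094 (SE), adjusted p = 8.12e-07), and Gdf15, a stress cytokine, rose by 2.39 ± 0.38. The chaperone cofactor Bag3 (-1.44 ± 0.12) and the intercalated disc protein Nrap (-1.27 ± 0.21) were lower, and both lost their call under total count scaling. Xirp2 (0.47 ± 0.16) and desmin (Des, -0.41 ± 0.15), the members at the highest levels, were not called, since their changes were under 2-fold. Myh7, the beta myosin heavy chain of fetal ventricle, was lower after MI at 9061, 6123 and 5411 against 11961, 14913 and 11591 (-0.93 ± 0.19, adjusted p = 0.00216) and missed the 2-fold limit. Acta1, the skeletal actin of the fetal programme, was at -0.50 (adjusted p = 0.15). Myh7 and Acta1 too were named after their values were seen.

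Receptors that set contractility were lower too. Of 21 tested genes of adrenergic and renin-angiotensin signalling (22 listed), 11 (52.4%) were called lower and 1 (4.76%) higher, with a median of -1.11. Over all genes tested the shares were 13.8% and 14.7%. The beta-1 adrenergic receptor Adrb1 was at 495, 488 and 446 after sham and 121, 86.4 and 82.2 after MI (log2 fold change -2.31 ± 0.17 (SE), adjusted p = 3.72e-06), the alpha-1A receptor Adra1a at 1270.0, 1678 and 1426 after sham and 332, 249 and 196 after MI (-2.51 ± 0.19). The adenylyl cyclases Adcy5 (-1.63 ± 0.11) and Adcy6 (-1.89 ± 0.11) and the phosphodiesterase Pde4d (-1.61 ± 0.15) were lower, and Gnas, the stimulatory G protein, was at -0.45 ± 0.12 and not called. The single gene called higher was Edn1, which encodes the vasoconstrictor endothelin 1, at 101, 86.2 and 170.4 after sham and 402, 392 and 368 after MI. It was named after its values were seen.

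Genes of oxidative metabolism fell as well. Of 33 fatty acid uptake and oxidation genes 32 were called lower (97.0%, median -1.93), of 30 genes of the tricarboxylic acid cycle and pyruvate entry 27 (90%, median -1.57), and of 37 nuclear genes of the respiratory chain 36 (97.3%, median -1.54), with none higher in any of the lists. Over all genes tested 13.8% were called lower and 14.7% higher. Beside Ppara, the smallest p among oxidation genes belonged to malonyl-CoA decarboxylase (Mlycd, -1.96 ± 0.10), the carnitine palmitoyltransferase Cpt2 (-1.99 ± 0.11) and the electron transfer dehydrogenase Etfdh (-1.96 ± 0.11). Lipoprotein lipase (Lpl) was at 62391, 81086 and 63639 after sham and 19316, 13071 and 14426 after MI (-2.16 ± 0.19) and the fatty acid transporter Cd36 at 30179, 37438 and 34392 after sham and 14438, 10714 and 11708 after MI (-1.47 ± 0.16). Cd36 lost its call under total count scaling. The exception was Cpt1a, the carnitine palmitoyltransferase that muscle carries beside its own isoform, at 1299, 1408 and 1344 after sham and 1917, 1853 and 1917 after MI (0.49 ± 0.087, named after its values were seen).

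In the tricarboxylic acid cycle the mitochondrial isocitrate dehydrogenase Idh2 was at 18060.2, 19771 and 18725 after sham and 5584, 3708 and 4332 after MI (log2 fold change -2.07 ± 0.15 (SE), adjusted p = 2.85e-06). Idh3b (-1.80 ± 0.12), Sucla2 (-1.71 ± 0.11), Sdhc (-1.47 ± 0.11) and Ogdh (-1.91 ± 0.14) were lower as well. Sdhc lost its call under total count scaling (-0.96). In the respiratory chain the muscle isoforms Cox7a1 (-2.14 ± 0.14) and Cox8b (-2.0 ± 0.15) fell, as did Ndufa5 of complex I (-1.83 ± 0.12), Cyc1 of complex III (-1.54 ± 0.12), Cox4i1 of complex IV (-1.63 ± 0.15) and Atp5b of ATP synthase (-1.67 ± 0.18). Of the 13 messenger RNAs of the mitochondrial genome, a set chosen after values were seen, 11 were called lower and none higher, with changes from -3.13 to -1.17. Over all genes tested the shares were 13.8% and 14.7%. MI 1 had the highest levels of Myh6 and Atp5b among the MI libraries.

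**Figure D3:**
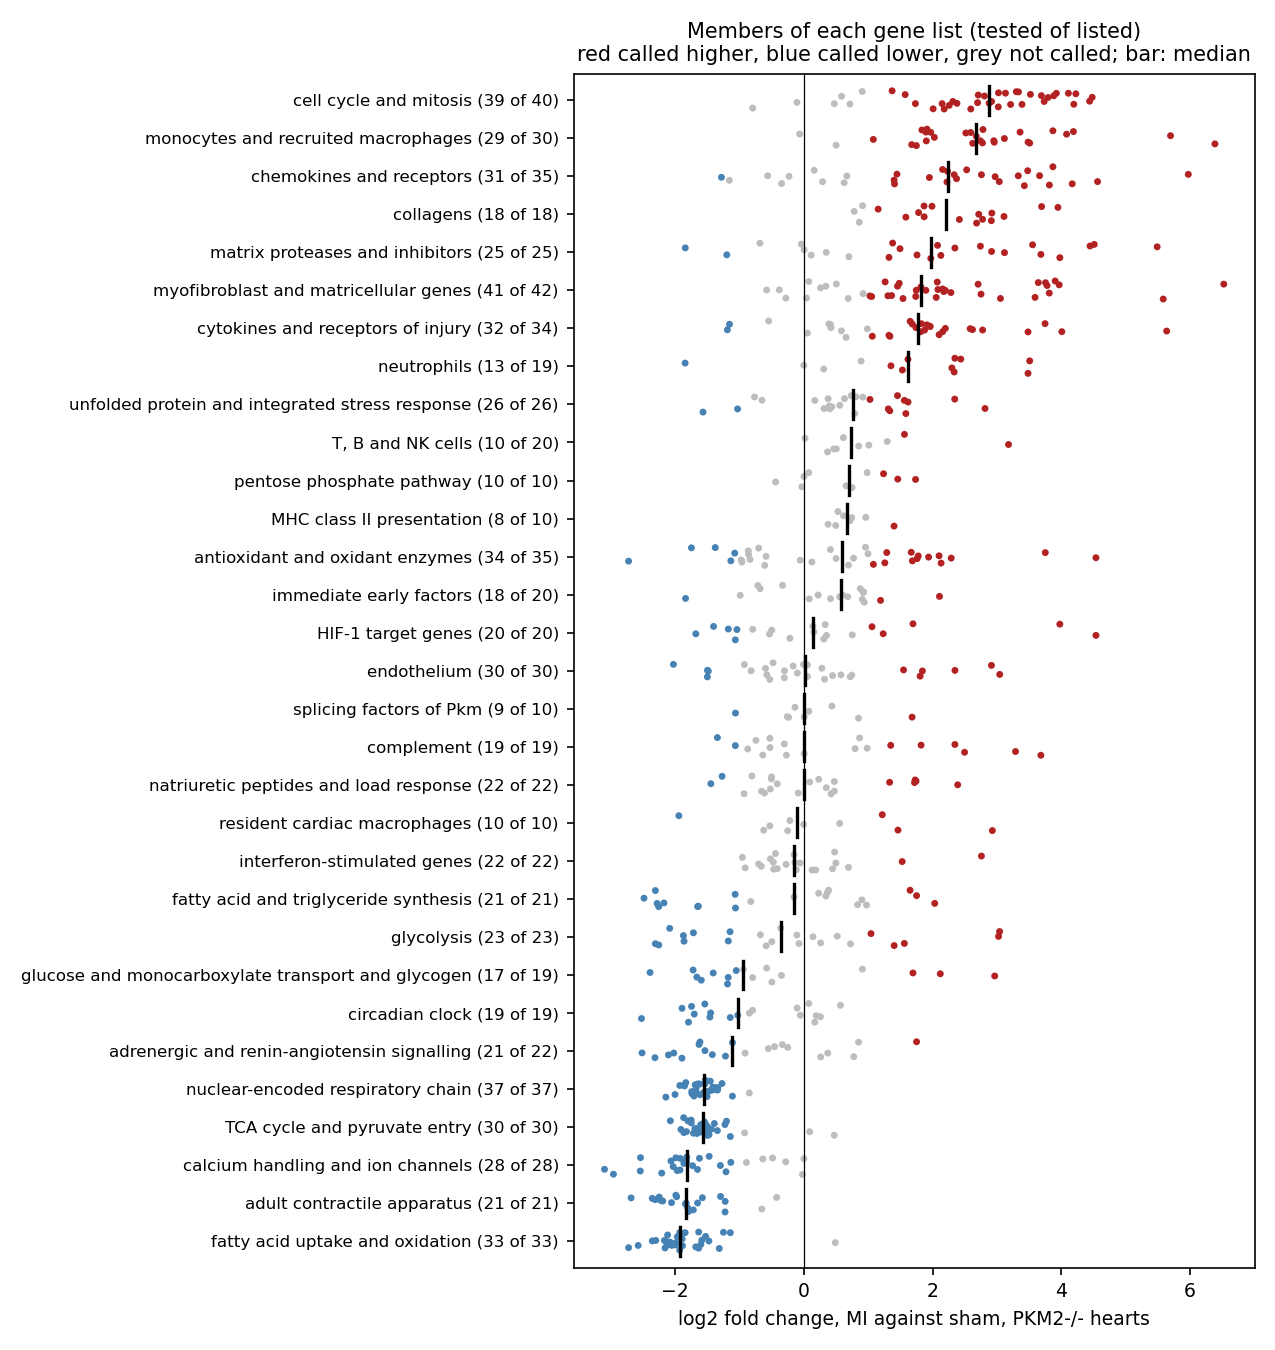
Log2 fold change, MI against sham, of the tested members of 31 gene lists in PKM2-/- hearts, with the number tested of those listed. Red points were called higher, blue lower, grey not called, and the bar is the median. Cell cycle genes lie furthest to the right (median 2.88) and fatty acid oxidation genes furthest to the left (median -1.93).

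Of 23 glycolytic genes 5 (21.7%) were called higher and 8 (34.8%) lower, beside 14.7% and 13.8% of all genes tested, with a median of -0.36. Hk3, a hexokinase of myeloid cells, went from 83.6, 67.9 and 47.5 to 589, 513 and 519 (log2 fold change 3.04 ± 0.21 (SE), adjusted p = 2.2e-06), while the insulin-regulated muscle hexokinase Hk2 fell from 6212, 8452 and 6112 to 3166, 3009 and 2940.1 (-1.17 ± 0.13). Among phosphofructokinases the muscle isoform Pfkm fell (12374, 14833 and 12816 after sham and 3484, 2445 and 2548 after MI, -2.25 ± 0.15), and Pfkl (-0.36 ± 0.12) and Pfkp (0.52 ± 0.13) were not called. Among enolases the muscle isoform Eno3 fell (-2.08 ± 0.13) and the ubiquitous Eno1 rose from 1788, 1583 and 1933 to 5787, 4526 and 5381 (1.56 ± 0.12). Pgam2, the muscle phosphoglycerate mutase, fell (-1.87 ± 0.13) and Pgam1 rose (1.04 ± 0.17). Ldhb, the lactate dehydrogenase subunit typical of heart, fell from 15439.8, 15759 and 18120.1 to 4282, 2829 and 3009 (-2.31 ± 0.16), while Ldha stayed within overlapping ranges at 7387, 7914 and 7506 after sham and 9639, 7501 and 8159.6 after MI (0.14 ± 0.12). Of the bifunctional enzymes that set fructose-2,6-bisphosphate, Pfkfb2, the cardiac isoform, fell (-1.86 ± 0.092), Pfkfb1 fell (-1.71 ± 0.24) and Pfkfb4 rose (1.40 ± 0.14). Aldoa, the most abundant aldolase of muscle, fell by 1.15 ± 0.16, and its call was lost under either total count scaling. Hk3, Eno3, Pfkm, Pfkfb2, Aldoa and Ldha came from the naming rule, and the others were chosen after their values were seen.

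**Figure D4:**
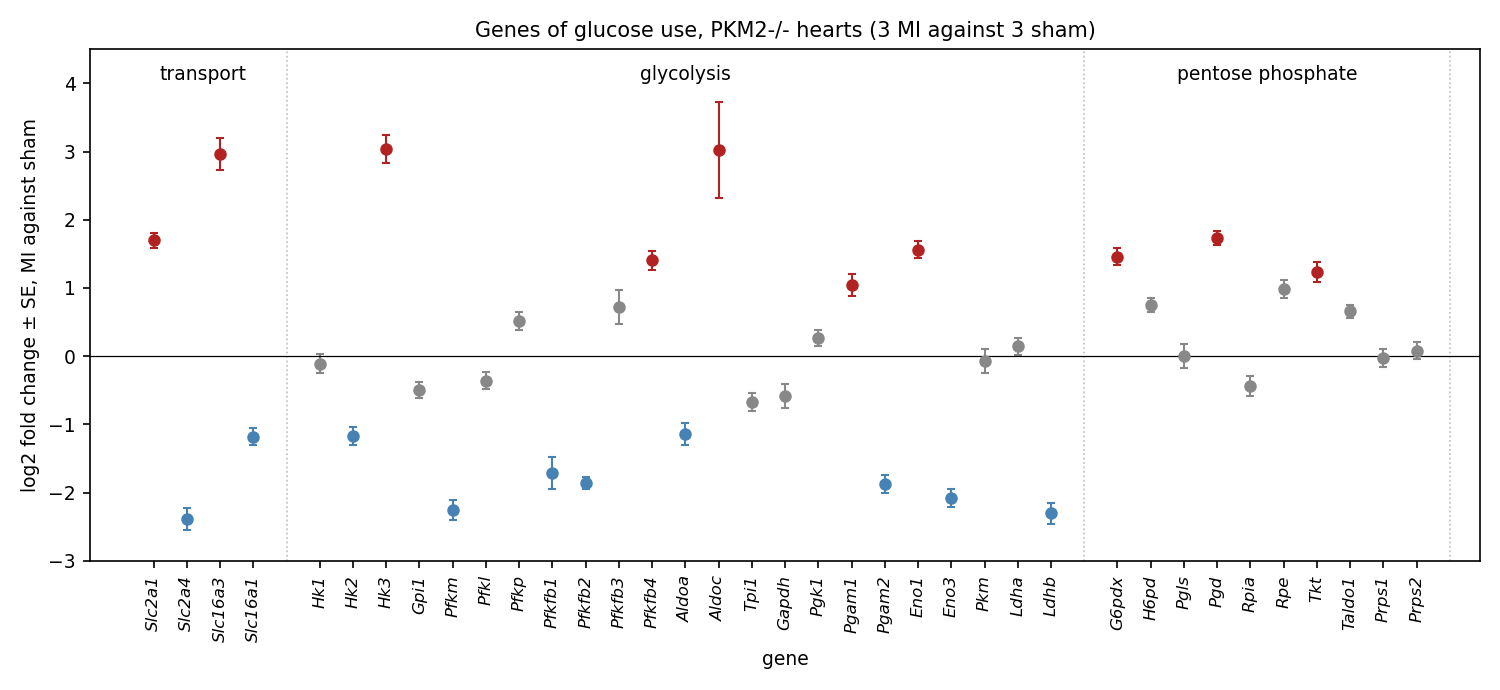
Log2 fold change ± SE, MI against sham (3 libraries each), of 37 genes of glucose and monocarboxylate transport, glycolysis and the pentose phosphate pathway in PKM2-/- hearts. Red was called higher, blue lower and grey not called. Muscle isoforms such as Slc2a4, Pfkm, Pgam2, Eno3 and Ldhb lie below 0 and Slc2a1, Slc16a3, Hk3, Aldoc, Eno1, G6pdx, Pgd and Tkt above it.

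The insulin-responsive transporter Slc2a4 (GLUT4) was at 4818, 4843 and 4762 after sham and 1216, 773 and 822 after MI (log2 fold change -2.39 ± 0.16 (SE), adjusted p = 1.73e-06), and Slc2a1 (GLUT1), the transporter of most other cells, at 458, 445 and 412 after sham and 1533, 1319.7 and 1421 after MI (log2 fold change 1.70 ± 0.10 (SE), adjusted p = 1.28e-06). The lactate exporter Slc16a3 (MCT4) went from 174, 223 and 106 to 1364, 1146 and 1272 (2.97 ± 0.23), whereas Slc16a1 (MCT1) fell (-1.18 ± 0.13). Both were named after their values were seen. Of the glycogen enzymes, Pygb, the brain and heart phosphorylase (-1.59 ± 0.17), was lower, and Pygl, the liver phosphorylase that leukocytes use, was higher (2.12 ± 0.13). In all, 3 genes (17.6%) of the 17 tested in this list of 19 were called higher and 8 (47.1%) lower (median -0.94). The shares over all genes tested were 14.7% and 13.8%.

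The pentose phosphate pathway makes NADPH and ribose. Of its 10 genes 3 (30%) were called higher and none lower, beside 14.7% and 13.8% of all genes tested, with a median of 0.70. Phosphogluconate dehydrogenase (Pgd) was at 489, 485 and 506 after sham and 1569, 1566 and 1811 after MI (log2 fold change 1.74 ± 0.10 (SE), adjusted p = 1.05e-06). G6pdx, the entry enzyme (249, 225 and 291 after sham and 707, 719.6 and 672 after MI, 1.46 ± 0.13), and transketolase (Tkt, 1.24 ± 0.15) were the other called genes. Rpe (0.98 ± 0.13) and H6pd (0.75 ± 0.11) were higher in every MI library than in every sham library but missed the 2-fold limit. In lipid synthesis and storage 3 of 21 genes (14.3%) rose and 9 (42.9%) fell, beside 14.7% and 13.8% of all genes tested. The lipid droplet coat Plin2 was at 924, 976 and 1032 after sham and 4787, 3581 and 3738 after MI (2.03 ± 0.12) and Plin5, the coat of oxidative tissue, at 1331, 1509.7 and 1499 after sham and 322, 289.6 and 351 after MI (-2.17 ± 0.11). Scd2, a desaturase, rose by 1.65 ± 0.091, and Acacb (-2.48 ± 0.14), the carboxylase that governs carnitine transfer, and Lpin1 (-2.25 ± 0.15) fell.

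Of 34 tested redox genes (35 listed) 13 (38.2%) were called higher and 5 (14.7%) lower (median 0.60). The shares over all genes tested were 14.7% and 13.8%. Hmox1, the inducible haem oxygenase, was at 227, 232 and 416 after sham and 6629, 6145 and 6829 after MI (log2 fold change 4.54 ± 0.20 (SE), adjusted p = 4.13e-07). Cyba (1.78 ± 0.099), a subunit of the phagocyte oxidase, rose, and so did glutathione reductase (Gsr, 1.67 ± 0.11). Sod2, the mitochondrial superoxide dismutase, was at 8948, 9830.1 and 10332 after sham and 3397, 2482 and 2859 after MI (-1.75 ± 0.13), and Nnt, the transhydrogenase of the inner membrane, at 9946, 16439.6 and 13368 after sham and 1873, 2518 and 1614 after MI (-2.72 ± 0.20). Slc7a11, the cystine transporter, went from 53.1, 62.7 and 33.4 to 811, 514 and 691 (3.75 ± 0.25) and was named after its values were seen.

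Targets of the hypoxia factor HIF-1 moved in both directions. Of 20 genes 5 were called higher and 5 lower (25% each), beside 14.7% and 13.8% of all genes tested, and the median was 0.15. Hmox1 and Slc2a1, given above, were among those that rose. Egln1, the prolyl hydroxylase that marks HIF for destruction, fell from 7156, 8335 and 8415 to 2759, 2325 and 2389 (-1.68 ± 0.11). Slc2a1 and Egln1, whose promoters are printed above, both hold the hypoxia core and moved in opposite directions. Of 9 tested splicing factors that act on Pkm exons (10 listed), 1 rose and 1 fell (11.1% each), beside 14.7% and 13.8% of all genes tested. Ptbp1, which represses the exon specific to PKM1, was at 939, 836 and 961 after sham and 2886, 2822 and 3069 after MI (log2 fold change 1.68 ± 0.096 (SE), adjusted p = 9.98e-07), Hnrnpa1 was higher without reaching 2-fold (0.85 ± 0.11), Rbfox1 was lower (-1.06 ± 0.13, a call lost without MI 1 or sham 2 and under both total count scalings, where it lay between -1.0 and -0.55), Srsf3 was at 0.44 ± 0.094, and Mbnl1 (0.01 ± 0.11) and Mbnl2 (-0.26 ± 0.13), the members at the highest levels, were not called.

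Scar matrix rose strongly. Of 18 collagen genes 15 (83.3%) were called higher and none lower, beside 14.7% and 13.8% of all genes tested (median 2.20). Col1a1, the main fibrillar collagen chain, was at 9610.5, 4702 and 5150.1 after sham and 39028, 58972 and 65148 after MI (log2 fold change 3.11 ± 0.28 (SE), adjusted p = 1.05e-05), and Col3a1 at 14593, 8519 and 7878 after sham and 53660.4, 70348 and 68885 after MI (2.68 ± 0.23). In both, sham 1 was the highest sham library and MI 1 the lowest MI library, and the groups did not overlap. Col12a1 (3.95 ± 0.23), Col5a2 (2.91 ± 0.15) and Col8a1 (2.92 ± 0.16) had the smallest p beside Col18a1. Of 5 fibroblast markers 1, Col1a1, was called higher, beside 14.7% of all genes tested. Pdgfra was at 0.84, Tcf21 at 0.57 and Dcn at -0.58, none called, all named after their values were seen. The summed level of 5 fibroblast markers was 15387 to 23909 after sham and 49979 to 76153 after MI, in which Col1a1 is a large part.

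Of 41 tested myofibroblast and matricellular genes (42 listed), 31 (75.6%) were called higher and none lower (median 1.82). Over all genes tested the shares were 14.7% and 13.8%. Fn1, fibronectin, was at 3579, 2046 and 2466 after sham and 34905, 41193 and 42256 after MI (log2 fold change 3.90 ± 0.19 (SE), adjusted p = 5.88e-07), Sparc, which binds collagen, at 6533, 5432 and 6401 after sham and 23247, 26760.0 and 27233 after MI (2.07 ± 0.13). Loxl3 (2.75 ± 0.11), a second collagen cross-linker, and Tgfbi (3.06 ± 0.12) joined Lox and Ltbp2 at the smallest p. Acta2, the smooth muscle actin that myofibroblasts acquire, was at 1973, 1198 and 2915 after sham and 2746, 4249 and 4013 after MI, with overlapping ranges, and was not called (log2 fold change 0.92 ± 0.28 (SE), adjusted p = 0.0193, named after its values were seen). Of 9 listed genes of mural cells 3 (33.3%) were called lower and none higher, beside 13.8% and 14.7% of all genes tested. Their median was -0.56 and their range from -2.22 to 0.94. Those called were Myh11 of smooth muscle (-1.34 ± 0.11) and 2 genes listed as pericyte markers, Rgs5 (-1.41 ± 0.12) and Abcc9 (-2.22 ± 0.14). They were named after their values were seen, and bulk counts do not say which cells the reads came from. The sum of 5 mural markers, Abcc9 among them, was 20814 to 23508 after sham and 7525 to 8527 after MI.

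Of 25 proteases and inhibitors 17 (68%) rose and 2 (8%) fell, beside 14.7% and 13.8% of all genes tested (median 1.97). Timp1, the inducible metalloproteinase inhibitor, was at 254, 118 and 172 after sham and 3834, 3849 and 4197 after MI (log2 fold change 4.51 ± 0.23 (SE), adjusted p = 6.29e-07), and Adam12, a shedding protease of activated mesenchyme, at 344, 282 and 321 after sham and 2746, 4356 and 4263 after MI (3.55 ± 0.17). Timp3, the member at the highest level, was lower by less than 2-fold (-0.68 ± 0.12). The macrophage elastase Mmp12 went from 9.65, 13.1 and 12.9 to 968, 509 and 382 (5.49 ± 0.33), and Timp4, the inhibitor typical of heart muscle, fell from 1018, 1024 and 1173 to 436, 224 and 269.8 (-1.84 ± 0.21). Mmp12 and Timp4 were named after their values were seen.

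Genes of monocytes and recruited macrophages rose nearly without exception, 27 of 29 tested (93.1%, 30 listed), with none lower and a median of 2.68. Over all genes tested 14.7% were called higher and 13.8% lower. Ccr2, the receptor that brings monocytes out of the marrow, was at 180.1, 148 and 113 after sham and 1819.9, 2176 and 2421 after MI (log2 fold change 3.87 ± 0.17 (SE), adjusted p = 4.13e-07). Lgals3, galectin 3, was at 215, 129 and 141 after sham and 3218, 3153 and 2396 after MI (4.19 ± 0.19), the scavenger receptor Msr1 at 238, 205 and 284 after sham and 2888, 2305 and 2274 after MI (3.36 ± 0.14), and Lyz2, the lysozyme of the myeloid lineage, at 4399, 3167 and 3836 after sham and 12462, 16818 and 15415 after MI (1.97 ± 0.15). The sum of 5 defining markers was 5421 to 7222 after sham and 21441 to 26406 after MI. Cd44 was not called (35386, 34438 and 96416 after sham and 17747, 65323 and 88669 after MI). Its counts ran with those of the ribosomal locus CT010467.1, 1824250.0, 1507010.0 and 8062860.0 after sham and 490116, 4652840.0 and 5605610.0 after MI, both being highest in sham 3 and lowest in MI 1, and its value is not read as Cd44 expression.

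Of 10 genes of resident cardiac macrophages 3 (30%) were called higher and 1 (10%) lower, beside 14.7% and 13.8% of all genes tested, with a median of -0.11. Timd4, a marker of self-renewing tissue macrophages, fell from 116, 48.3 and 77.7 to 25.9, 15.2 and 17.3 (log2 fold change -1.94 ± 0.37 (SE), adjusted p = 0.00159). Pf4 (2.93 ± 0.18), F13a1 (1.46 ± 0.13) and Mrc1 (1.22 ± 0.14), which recruited cells also express, rose. Lyve1 (-0.53 ± 0.12), Folr2 (-0.0018 ± 0.15) and Cd163 (-0.25 ± 0.11), named after their values were seen, were not called. The fractalkine receptor Cx3cr1 was at 6276, 6684 and 5945 after sham and 5987, 4631 and 4391 after MI (-0.34 ± 0.13), with overlapping ranges.

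Neutrophil genes rose in 9 of 13 tested (69.2%, 19 listed) and fell in 1 (7.69%), beside 14.7% and 13.8% of all genes tested (median 1.62). Csf3r, the receptor of granulocyte colony-stimulating factor, was at 322, 360.4 and 314 after sham and 1582, 1739 and 2124 after MI (log2 fold change 2.44 ± 0.13 (SE), adjusted p = 7.43e-07), Cxcr2 at 83.6, 77.1 and 108 after sham and 459, 384 and 522 after MI (2.34 ± 0.18) and the decoy receptor Il1r2 at 148, 325 and 125 after sham and 2385, 1808 and 1985 after MI (3.48 ± 0.30). Clec4d, a C-type lectin shared with monocytes, rose by 3.51 ± 0.27. The 6 members not tested had a mean below 10.

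Of 31 tested chemokines and chemokine receptors (35 listed) 22 (71.0%) rose and 1 (3.23%) fell, beside 14.7% and 13.8% of all genes tested (median 2.23). Ccr1 was at 104, 87.5 and 176 after sham and 1458, 1198 and 1304 after MI (log2 fold change 3.48 ± 0.23 (SE), adjusted p = 1.73e-06), Ccl9 rose by 2.23 ± 0.14 and Ccl6 by 1.95 ± 0.11. The homeostatic chemokine Cxcl12 was not called (0.16 ± 0.096). Of 32 tested cytokines and receptors (34 listed) 22 (68.75%) rose and 2 (6.25%) fell, beside the same shares of all genes tested (median 1.78). Csf2rb, the shared receptor chain for GM-CSF, IL-3 and IL-5, was at 195, 204 and 274 after sham and 1351, 1386 and 1365 after MI (log2 fold change 2.62 ± 0.14 (SE), adjusted p = 7.79e-07), Tnfrsf1b at 649, 622 and 585 after sham and 1957, 1921 and 1956 after MI (1.65 ± 0.091) and Il4ra at 1376, 1610.3 and 1617 after sham and 7502, 5503 and 5142 after MI (1.96 ± 0.15). Follistatin-like 1 (Fstl1) rose by 2.16 ± 0.13, and Il6st, the gp130 chain, by less than 2-fold (0.58 ± 0.097). Of 19 complement genes 6 (31.6%) rose and 2 (10.5%) fell, beside 14.7% and 13.8% of all genes tested, and the median was 0.0068. The receptors C3ar1 (3.29 ± 0.22), C5ar1 (2.35 ± 0.15) and Itgb2 (2.50 ± 0.15) and the activator Cfp (1.82 ± 0.11) were higher, and C3, the central component, was lower without reaching 2-fold (-0.87 ± 0.15).

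Lymphocyte genes were close to the limit of detection. Only 10 of 20 had a mean of 10 or more, and 2 of these (20%) were called higher, beside 14.7% of all genes tested. Il7r was at 19.3, 52.2 and 23.7 after sham and 356, 284 and 195 after MI (log2 fold change 3.18 ± 0.37 (SE), adjusted p = 5.45e-05). Cd79b (1.30 ± 0.55), Cd79a (1.01 ± 0.54) and Ighm (0.51 ± 0.68) were not called, and Ighm was high in MI 3 alone (62.4, 112 and 669) and turned to -0.49 without it. Of 8 tested class II antigen genes (10 listed) 1 (12.5%) was called higher, beside 14.7% of all genes tested. This gene, H2-DMb1, was at 88.4, 43.1 and 30.2 after sham and 109, 130.2 and 156 after MI (1.40 ± 0.36). Cd74 (0.72 ± 0.28), H2-Ab1 (0.96 ± 0.29), H2-Aa (0.62 ± 0.32) and H2-DMa (0.38 ± 0.13) were not called.

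Of 22 interferon-stimulated genes 2 (9.09%) were called higher and none lower, beside 14.7% and 13.8% of all genes tested, and the median was -0.14. Those called were Cxcl10 (14.5, 20.9 and 4.32 after sham and 55.1, 91.5 and 107 after MI, 2.76 ± 0.52, or 2.16 without sham 3) and Mx1 (204, 70.5 and 73.4 after sham and 276, 339 and 277 after MI, 1.53 ± 0.35). Ifi44 was at 452, 253 and 222 after sham and 103, 151 and 224 after MI. Sham 1 was the highest of the 6 libraries, and Ifi44 (log2 fold change -0.95 ± 0.32 (SE), adjusted p = 0.0276), which missed the 2-fold limit, was at -0.65 without sham 1. Ifitm3 was higher in every MI library than in every sham library but by less than 2-fold (0.48 ± 0.16).

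Among the 31 gene lists of pathways and cell states, that of cell division had the highest median, 2.88, with 33 of 39 tested genes (84.6%, 40 listed) called higher and none lower. Over all genes tested the shares were 14.7% and 13.8%. Cdk1, the kinase that drives entry into mitosis and whose promoter is printed above, was at 51.4, 32.6 and 32.4 after sham and 772, 894 and 869.9 after MI (log2 fold change 4.44 ± 0.20 (SE), adjusted p = 4.13e-07). Mki67, the proliferation antigen, was at 400.3, 242 and 309 after sham and 3944, 4315 and 4720.3 after MI (log2 fold change 3.79 ± 0.17 (SE), adjusted p = 4.13e-07), the replicative helicase subunit Mcm5 at 99.7, 81.0 and 86.3 after sham and 843, 760.2 and 756 after MI (3.13 ± 0.14), and the ribonucleotide reductase subunit Rrm1 at 304, 338 and 335 after sham and 1527, 1399 and 1417 after MI (2.15 ± 0.10). Ccnd2 (-0.79 ± 0.085) and Ccnd3 (0.47 ± 0.14), D-type cyclins of the entry phase, were the members at the highest levels and were not called. In the 2 unoperated PKM2-/- hearts Mki67 was at 127 and 40.3.

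Of 30 endothelial genes 6 (20%) were called higher and 4 (13.3%) lower, beside 14.7% and 13.8% of all genes tested, and the median was 0.01. Pecam1, present in all endothelium, was at 5529, 5753 and 5456 after sham and 6049.9, 5570.5 and 5488 after MI (0.03 ± 0.095), and the sum of 4 endothelial markers was 15027 to 15877 after sham and 16152 to 17621 after MI. Apln, the apelin peptide of sprouting tips, was at 132, 205 and 147 after sham and 1712, 1035 and 1275 after MI (log2 fold change 3.04 ± 0.21 (SE), adjusted p = 2.24e-06). Prox1, the factor of lymphatic endothelium that cardiomyocytes also express, was at 1764, 2037 and 1914 after sham and 503, 455 and 443 after MI (log2 fold change -2.03 ± 0.10 (SE), adjusted p = 6.61e-07), the water channel Aqp1 at 6225, 6854 and 6189 after sham and 2328, 2317 and 2178 after MI (-1.5 ± 0.093) and the vessel-stabilising ligand Angpt1 at 1334, 1871 and 1414 after sham and 505, 557 and 555 after MI (-1.5 ± 0.13). The calls of Aqp1 and Angpt1 were lost under total count scaling. Flt1, a VEGF receptor, was lower without reaching 2-fold (-0.92 ± 0.11).

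Of 26 genes of the unfolded protein and integrated stress responses 9 (34.6%) were called higher and 2 (7.69%) lower (median 0.76). Over all genes tested the shares were 14.7% and 13.8%. Psat1, of serine synthesis, was at 67.5, 53.5 and 70.1 after sham and 465, 427 and 465 after MI (log2 fold change 2.82 ± 0.16 (SE), adjusted p = 1.09e-06), and the disulphide isomerases Pdia4 (1.56 ± 0.11) and Pdia3 (1.31 ± 0.11) and the chaperone Calr (1.03 ± 0.094) rose. Calr was at the 2-fold limit and lost its call under edgeR (1.0), under limma-voom (1.0) and without MI 3 (0.99). The major chaperones Hspa5 (0.31 ± 0.12) and Hsp90b1 (0.74 ± 0.14) were not called. Among 18 tested immediate early factors (20 listed) 2 (11.1%) rose and 1 (5.56%) fell, beside 14.7% and 13.8% of all genes tested. Myc was at 103, 141 and 142 after sham and 739, 505 and 452 after MI (log2 fold change 2.11 ± 0.21 (SE), adjusted p = 1.95e-05). Fosl1 rose by 1.19 ± 0.22, and Nr4a1 fell from 2415, 2954 and 1068 to 881, 473 and 399.6 (-1.84 ± 0.37). Junb (0.93 ± 0.14), Nr4a3 (-0.99 ± 0.18) and Fosl2 (0.22 ± 0.24) were not called.

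Of 19 clock genes 10 (52.6%) were called lower and none higher, beside 13.8% and 14.7% of all genes tested (median -1.03). The output factors of the PAR bZIP family fell, Hlf from 551, 481 and 614 to 116, 92.7 and 77.9 (log2 fold change -2.52 ± 0.18 (SE), adjusted p = 2.59e-06) and Tef from 2395, 2399 and 2679 to 932, 761 and 629 (-1.70 ± 0.14). The repressor Nr1d2 (-1.46 ± 0.12) and the activator Rora (-1.14 ± 0.13) were lower as well. Under total count scaling both lost their call (-0.95 for Nr1d2 and -0.63 for Rora), and Rora lost it too with ribosomal and mitochondrial genes left out of the totals (-0.91). Clock itself was at 1746, 2182 and 2088 after sham and 2173, 2321 and 2360.2 after MI, with overlapping ranges (0.19 ± 0.11).

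The muscle label of the tissue held: the 6 ventricular cardiomyocyte markers were at a summed 642097 to 787017 after sham and 146232 to 209831 after MI, and all 6 were called lower. The defining markers of atrial muscle summed to 353 to 1487 after sham and 143 to 848 after MI, those of fat to 17.7 to 36.7 after sham and 26.0 to 89.4 after MI and those of Schwann cells to 96.0 to 142 after sham and 62.4 to 76.5 after MI, none of them called. Red cell markers summed to 4324 to 6688 after sham and 5440.2 to 18050.0 after MI, with MI 1 the highest (Hba-a1 at 4647, 1613 and 853 after MI). Of 7 genes of the mesothelium, the outer lining of the heart, 6 were called higher with a median of 3.37, at low counts. All 6 had a sham mean below 10 and passed the filter through their MI values, so this count is no support for a rise of the list. The sum of 3 defining mesothelial markers, Wt1 among them, was 244 to 686 after sham and 369 to 499.8 after MI, with overlapping ranges. Msln was at 0, 13.1 and 15.1 after sham and 24.3, 105 and 121 after MI (log2 fold change 3.5 ± 1.02 (SE), adjusted p = 0.0149), Krt19 at 3.22, 5.22 and 8.63 after sham and 38.9, 69.2 and 98.1 after MI (3.37 ± 0.47), and Wt1 was not called (-0.16 ± 0.33). MI 1 had the lowest value of Msln, Upk3b, Upk1b, Lrrn4, Krt19 and Krt8 among the MI libraries. These mesothelial and red cell genes were named after their values were seen. Of 4 skeletal muscle markers only 1 was tested and it was called higher, and the sum was 20.5 to 43.1 after sham and 41.8 to 101 after MI.

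The response was compared with that of PKM2fl/fl hearts over the same 20572 genes. There 2626 genes were called higher (12.8%) and 2153 lower (10.5%). Of the genes called higher in PKM2-/- hearts 74.0% were called higher in PKM2fl/fl hearts too, 85.4% of the PKM2fl/fl set, and of those called lower 65.1% and 85.7%. In 2 genes the calls had opposite directions. Pearson's r of the log2 changes was 0.89 across genes, which are not independent replicates, and the contrasts share no library. A different count of calls does not show a different response, and the difference itself was tested in 1 model over the 12 sham and MI libraries of both genotypes.

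In that model no gene was called (0% of 20572, lowest adjusted p = 0.187, limma interaction term), while 1470 genes had an unadjusted p under 0.05. edgeR called 0 genes as well (1524 at an unadjusted p under 0.05), and DESeq2 called 28, 13 with a higher and 15 with a lower response in PKM2-/-. The result rested on 1 library outside the PKM2-/- groups. PKM2fl/fl MI 3 had Myh6 at 46178 against 137875 and 134794 in PKM2fl/fl MI 1 and MI 2 and 66974, 50252 and 49315 in the PKM2-/- MI hearts. Myh6 was chosen for this after its values were seen. By the share of reads on ribosomal loci PKM2fl/fl MI 2 was the one apart (20.9% against 50.7% in MI 1 and 50.4% in MI 3). Leaving out MI 3 is therefore not the removal of a library shown to be faulty. Without PKM2fl/fl MI 3 the interaction term called 139 genes, 22 higher and 117 lower, and 3241 passed an unadjusted p of 0.05. Without it 11.3% of genes were called higher and 7.44% lower in PKM2fl/fl hearts, and 66.3% of the higher and 45.8% of the lower PKM2-/- calls were shared.

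**Figure D5:**
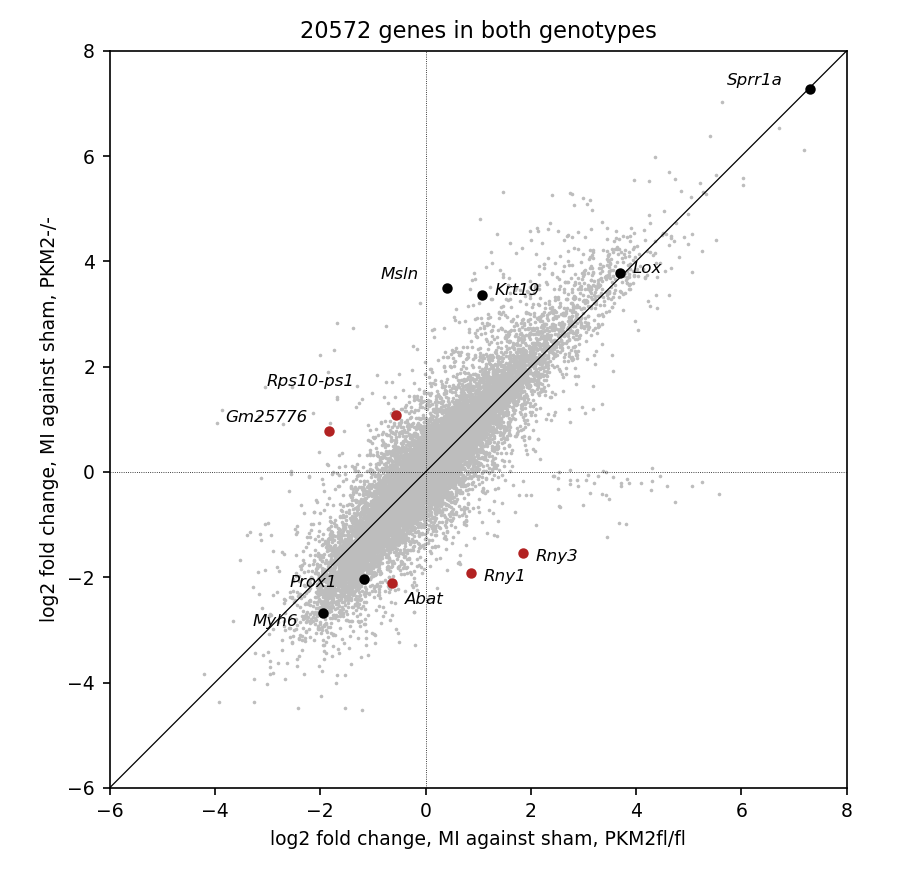
Log2 fold change, MI against sham, in PKM2-/- hearts (vertical) against PKM2fl/fl hearts (horizontal) for 20572 genes, with the line of equality. Red marks the 5 genes with the smallest interaction p, none called. Most genes lie near the line, Rny1 and Rny3 lie below 0 in PKM2-/- and above 0 in PKM2fl/fl hearts, and the mesothelial genes Msln and Krt19 lie above the line. Msln and Krt19 passed the filter through their PKM2-/- MI values, which favours that position.

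The PKM2fl/fl log2 change was 3.69 for Lox, 7.31 for Sprr1a, 3.22 for Col1a1, 3.30 for Ccr2, 4.5 for Hmox1 and 3.61 for Cdk1. For muscle it was -1.94 for Myh6, -1.80 for Atp2a2 and -1.86 for Slc2a4, each smaller in size than in PKM2-/- hearts, with interaction adjusted p of 0.811, 0.773 and 0.812. Without PKM2fl/fl MI 3 the interaction called Slc2a4 (-1.02, adjusted p = 0.0406), and among other muscle genes Kcnip2 (-1.32, adjusted p = 0.00279) and Hrc (-1.47, adjusted p = 0.0133), and did not call Myh6 or Atp2a2. Kcnip2 and Hrc were chosen here after their values were seen. The lists with the widest gap between genotypes were the mesothelial genes (median 3.37 in PKM2-/- and 0.81 in PKM2fl/fl hearts, 5 of 7 with an unadjusted interaction p under 0.05 and none called, or Krt19 alone without PKM2fl/fl MI 3, at 3.07 and adjusted p = 0.04) and the ribosomal loci (-0.26 and 3.71), for which the libraries differed within groups. The filter used PKM2-/- libraries only, and the 6 mesothelial genes called higher there passed it through their MI values. Such a choice favours a larger rise in PKM2-/- hearts, so the mesothelial gap is no support for a genotype difference.

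Abat, the mitochondrial transaminase of GABA, fell from 599.6, 601 and 609.5 to 161, 126 and 133 in PKM2-/- hearts (log2 fold change -2.11 ± 0.14 (SE), adjusted p = 1.7e-06) and had a log2 change of -0.63 in PKM2fl/fl hearts, under the 2-fold limit (interaction -1.47 ± 0.26, adjusted p = 0.304). Without PKM2fl/fl MI 3 its interaction was called (-1.71, adjusted p = 0.00279). The small Y RNAs Rny1 and Rny3, parts of the Ro ribonucleoprotein, had the smallest interaction p. Rny3 was at 1228, 1046 and 2142 after sham and 303, 699 and 537 after MI in PKM2-/- hearts and rose in PKM2fl/fl hearts (log2 1.85), and Rny1 was at 1985, 1247 and 1074 after sham and 239, 535 and 379 after MI against 0.86. The interaction was -3.38 ± 0.51 for Rny3 and -2.78 ± 0.42 for Rny1, with adjusted p = 0.187 for both. Without PKM2fl/fl MI 3 both were called (-3.17 and -2.70, adjusted p = 0.0218 for both), at smaller differences and larger unadjusted p than with it. The small nucleolar RNA gene Gm25776 and the ribosomal protein pseudogene Rps10-ps1, whose parent gene can share its reads, were the remaining genes of the 5.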

How the data were processed

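RNA was sequenced from left ventricles as total RNA after removal of ribosomal RNA (NEBNext Ultra II libraries). The submitters' processing notes name the mm10 genome, HISAT2, featureCounts and DESeq2, without versions; whether counting used strand is not given in the sources used here. The deposited signal is a read count per gene that the authors divided by a DESeq2 size factor. The same table holds the authors' baseline comparison (mean, log2 fold change, SE, statistic, p and adjusted p), which was not used.

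Whole reads were recovered from the deposited values (100% of values whole within 0.1 of a read), which gave the depth of each library and the input of the count tests. Genes with a mean of at least 10 over the 6 PKM2-/- sham and MI libraries were kept. log2(value + 1) was fitted with limma 3.58.1 (trend, R 4.3.3, 2-sided, Benjamini-Hochberg), and folds are on that scale, which understates changes of low genes. A gene was called at an adjusted p below 0.05 and a change of at least 2-fold. The genotype by infarct term was fitted over 12 libraries. Nothing states more of the 3 replicates per group than that they are biological. edgeR 4.0.16 and DESeq2 1.42.0 on the recovered reads, other scalings, pseudocounts, filters and leaving out each library were alternatives. The count of genes called in both genotypes without PKM2fl/fl MI 3 was added after the data were seen. The fits were also run on simulated counts in which far fewer genes changed than were called here. That run does not test the effect of scaling and is not used as support. Intervals and floors cover counting error only.

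Genes named were Pkm, the 10 with the smallest p and the 10 with the largest change in each direction (mean of at least 100 in the higher group, no overlap of groups), the 4 with the smallest p and the 2 with the highest counts of each list, and the 5 with the smallest interaction p. Some genes that this rule names are not reported here. The members and lists were chosen with earlier results of these data known.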

Additional observations from a re-analysis of the deposited data

Results flagged for a closer look

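Among the 5 genes with the smallest interaction p, 4 moved in opposite directions in the libraries of the genotypes, and none passed the adjusted threshold of the limma interaction term. The small Y RNA Rny3 was at 1228, 1046 and 2142 after sham and 303, 699 and 537 after MI in PKM2-/- hearts. In PKM2fl/fl hearts it was at 991, 762 and 1538 after sham and 4297, 2503 and 5087 after MI, and the difference of the log2 changes (PKM2-/- minus PKM2fl/fl) was -3.38 (adjusted p = 0.187). Rny1, a second Y RNA, differed by -2.78 (adjusted p = 0.187). In PKM2fl/fl hearts it was at 1415, 735 and 1180 after sham and 1877, 1800 and 2174 after MI.

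The small nucleolar RNA gene Gm25776 was at 19.3, 23.5 and 21.6 after sham and 38.1, 53.3 and 26.0 after MI in PKM2-/- hearts, and at 79.9, 64.7 and 83.8 after sham and 18.5, 25.7 and 18.3 after MI in PKM2fl/fl hearts. The difference was 2.61 (adjusted p = 0.187). The pseudogene Rps10-ps1 was at 49.8, 50.9 and 61.5 after sham and 128, 126 and 95.2 after MI in PKM2-/- hearts, a difference of 1.65 (adjusted p = 0.304) from PKM2fl/fl hearts, and reads of its parent gene Rps10 cannot be separated from its own. Without PKM2fl/fl MI 3 all 4 genes passed the adjusted threshold. Rny3 was then at -3.17 and Rny1 at -2.70 (adjusted p = 0.0218 for both), Gm25776 at 2.53 (adjusted p = 0.0248) and Rps10-ps1 at 1.58 (adjusted p = 0.0374). Their own differences were smaller in size there, and their unadjusted limma p were larger (4.71e-05 against 1.81e-05 for Rny3). The adjustment is made over all genes, of which 3241 instead of 1470 had an unadjusted p under 0.05.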

How the results depend on the processing

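Of 160 named genes called in the main comparison, 148 kept the call under every one of the 18 alternatives that tested them, and 12 lost it at least once. No gene called by the main rule changed sign under any of the 18. Total count scaling moved the calls to 5550 higher and 1445 lower and turned Pkm to 0.44, Des to 0.10, Mbnl2 to 0.26, Cd44 to 0.45, Cx3cr1 to 0.17 and Gnas to 0.058 (log2). With ribosomal and mitochondrial genes left out of the totals Pkm was at 0.16 and Cd44 at 0.17. DESeq2 turned Mbnl1 to -0.0083 and Cd44 to 0.028, edgeR Mbnl1 to -0.024, Cd44 to 0.019 and Pecam1 to -0.0026, and limma-voom Mbnl1 to -0.023 and Pecam1 to -0.0040. None of these genes was called. The cause was not tested. Leaving out 1 library gave 2824 to 3083 higher and 2678 to 2905 lower calls. The log2 change then ranged from -0.27 to 0.069 for Pkm, -0.035 to 0.068 for Mbnl1, -0.52 to 0.64 for Cd44, -0.49 to 1.21 for Ighm, -0.020 to 0.54 for Fosl2 and -0.013 to 0.058 for Pecam1. The share of reads on ribosomal loci was 6.37 percentage points lower after MI, and 5.29 higher without mitochondrial ribosomal RNA (exact permutation p = 0.6 for both).

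The genotype by infarct term called 0 genes by limma and 28 by DESeq2. Leaving out 1 library gave 0 to 139: 139 without PKM2fl/fl MI 3, 2 without PKM2fl/fl sham 3 and 1 without PKM2-/- MI 1.

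Same-numbered sham and MI libraries showed no common deviation (correlations -0.068, -0.068 and 0.044), and unlike-numbered ones ranged from -0.098 to 0.141. With 3 libraries per group this cannot exclude a pairing. With the replicate block 3008 genes were called higher and 2798 lower, and 0 by the interaction term. Depth limits genes with few reads: 34920 genes were not tested.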
